A study of Mus musculus with 32 samples.

Results

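The transcripts described here are those of the heat shock proteins, their partner chaperones and the factors that control them in the mouse striatum. Members were chosen by gene symbol in the GENCODE M21 annotation: protein-coding genes named as heat shock proteins (Hsp90, Hspa, Hspb, Hspd, Hspe and Hsph1), J-domain proteins (Dnaja, Dnajb, Dnajc), subunits of the CCT chaperonin (Cct2 to Cct8 and Tcp1), BAG proteins (Bag1 to Bag6), heat shock factors (Hsf1 to Hsf5) and the adaptors Stip1 and St13. This rule took 94 of the 54532 genes in the count table and used no measured value. Of these, 82 passed the filter on low counts and were tested, and 12 did not: Cct6b, Cct8l1, Dnajb7, Dnajb8, Dnajc5b, Dnajc22, Dnajc5g, Hsf3, Hspb2, Hspb3, Hspb7 and Hspb9. None of the 12 exceeded 1.07 CPM (reads scaled by TMM to a common library size) in any mouse, and no read was assigned to Dnajb8 or Dnajc5g. The CCT subunit gene Cct6a was left out by the rule, because the annotation does not class it as protein-coding.

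RNA was sequenced from striata of 32 mice aged 6 months on a C57BL/6J background, with 8 mice to a genotype. Wild-type mice carried neither change. Msh3-/- mice were homozygous for a Cas9-made deletion that starts in exon 3 and ends in exon 8 of Msh3, a mismatch repair gene required for somatic expansion of the CAG repeat. zQ175 mice carried 1 knock-in copy of Htt with an expanded CAG repeat, a model of Huntington's disease, and zQ175:Msh3-/- mice carried the knock-in copy together with the homozygous deletion. Each group held 4 males and 4 females, except that 5 of the zQ175:Msh3-/- mice were male and 3 female. Both alleles were present in every cell from conception, and each library came from the whole striatum of a separate mouse, so fewer cells of a type and less RNA per cell cannot be told apart in these values.

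The deposited counts summed to between 12359347 and 25030335 per mouse. Msh3 reads lay at 22.9 to 27.5 CPM (wild-type) and 22.8 to 27.4 CPM (zQ175), and at 10.4 to 13.6 CPM (Msh3-/-) and 11.1 to 14.2 CPM (zQ175:Msh3-/-) where part of the gene was deleted, so the Msh3 genotype matched the labels in all 32 libraries. The summed level of 8 markers of spiny projection neurons, the principal cells of the striatum, was 6307 to 8151 CPM in mice without and 3235 to 4254 CPM in mice with the zQ175 allele, and 7 of the 8 were lower with the zQ175 allele at either Msh3 genotype. The libraries also differed within each genotype in reads from neighbouring tissue: the summed level of 4 choroid plexus markers ran from 32.3 to 2968 CPM over the 32 mice, and the level of the choroid plexus transcript Ttr from 14.5 to 2723 CPM. The summed level of 5 markers of cortex and thalamus ran from 46.5 to 607 CPM, with means of 179 CPM in wild-type, 219.8 where Msh3 alone was changed, 255 in zQ175 and 318 CPM where both changes were present. The median log2 fold change of these 5 with the zQ175 allele was 0.509 with Msh3 and 0.421 without it, where 0 and 1 of them passed by adjusted p, the latter lower. The part of any of these in the results for chaperones was not tested unless a value is given beside them.

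Molecular chaperones bind unfolded or misfolded proteins and help them to fold, to disassemble or to be degraded. HSP70 proteins bind and release their clients in a cycle driven by ATP, in which J-domain proteins deliver the client and start ATP hydrolysis, and HSP110 and BAG proteins exchange the nucleotide. HSP90 acts later on partly folded clients passed on by Stip1, small heat shock proteins hold aggregating proteins, and the CCT and mitochondrial chaperonins fold proteins inside a ring. When unfolded protein accumulates in the cytosol, heat shock factor 1 binds heat shock elements in the promoters of inducible chaperone genes, and in the endoplasmic reticulum (ER) the unfolded protein response acts on separate elements. Mutant huntingtin forms aggregates with which several chaperones associate, and raising the level of chaperones such as DNAJB6 or HSP70 lowers polyglutamine aggregation in cell models.

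Promoter sequences of the members were searched for known stress elements, as a description with no test. The windows used run from 250 bases before to 50 bases after the annotated start of each gene (RefSeq, GRCm38.p6), and 75 of the 94 members had an entry. A heat shock element was searched as TTCNNGAA or GAANNTTC on both strands. A gene can have several windows in the table. At least 1 window with the element was found for 21 of the 75 members (28.0%), against 4587 of all 27025 gene symbols (17.0%), and counted by window the element occurred in 15.1% of all 32851 promoters. The following 30-base stretches are shown 5′ to 3′ on the strand of the gene, with the element in capitals, because they belong to heat-inducible members of the cytosol whose values are given below and to Hspe1, the mitochondrial co-chaperonin, which holds overlapping copies. Hspa8, Hsp90aa1 and Hsp90ab1 had no entry.
Hspa1a, chr17:34972242-34972271, minus strand: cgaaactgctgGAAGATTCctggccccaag
Hspa1b, chr17:34959324-34959353, minus strand: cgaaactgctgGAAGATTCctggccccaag
Hsph1, chr5:149636351-149636380, minus strand: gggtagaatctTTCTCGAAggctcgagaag
Hspb1, chr5:135887791-135887820, plus strand: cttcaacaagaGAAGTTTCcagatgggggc
Dnaja1, chr4:40722333-40722362, plus strand: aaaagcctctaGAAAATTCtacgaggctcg
Hspe1, chr1:55088053-55088082, plus strand: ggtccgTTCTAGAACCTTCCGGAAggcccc

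The stretches of Hspa1a and Hspa1b, which encode nearly identical inducible HSP70 proteins from adjacent genes, are the same, and over the 250 bases before their starts 247 positions (98.8%) were identical. Reads from one may therefore have been assigned to the other, and their separate values are uncertain. The stretch of Hspe1 lies in a window that overlaps that of Hspd1, its chaperonin partner, which is transcribed in the opposite direction. Dnajb1 had no match in its window, which says only that these letters were not found there.

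A different motif was found for some ER members. The ER stress element was searched as CCAAT, 9 bases of any kind and CCACG, on both strands, and was found for 37 of all 27025 gene symbols (0.137%). Among the 75 members it was found for 3 (4.00%), Hspa5, Hsp90b1 and Dnajc3, which encode the ER HSP70 (BiP), the ER HSP90 (GRP94) and an ER J-domain protein. Here the capitals mark the element, including the 9 bases of its spacer.
Hspa5, chr2:34772020-34772049, plus strand: cttcaCCAATCGGAGGCCTCCACGacgggg
Hsp90b1, chr10:86705632-86705661, minus strand: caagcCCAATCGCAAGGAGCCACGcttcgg
Hsp90b1, chr10:86705527-86705556, minus strand, element on the other strand: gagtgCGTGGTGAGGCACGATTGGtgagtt
Dnajc3, chr14:118937822-118937851, plus strand: cacaaCCAATCAGCGCCAACCACGacccgg

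Levels can be compared between genes only per length, and for this the deposited TPM values (transcripts scaled for length and depth) were used. In wild-type striatum the members together made up 0.963% ± 0.0365 of all TPM (SD, n = 8). Hspa8, the constitutive cytosolic HSP70, was the most abundant at 1597 ± 115 TPM, followed by the cytosolic HSP90 genes Hsp90ab1 at 1516 ± 53.9 and Hsp90aa1 at 669 ± 40.7 TPM. These 3 genes held 39.3% of the members' TPM. The next were Hsp90b1 at 300.1 ± 16.2 TPM, the HSP70 partner Dnaja1 at 266 ± 16.8, Hspa5 at 236 ± 40.0 and the HSP110 gene Hsph1 at 221 ± 11.9 TPM. Neighbours in this lower order were not separated by their spread: the ranges of Dnaja1, Hspa5 and Hsph1 over the 8 mice overlapped. The 7 CCT subunits that were tested lay between 73.3 (Cct4) and 183 TPM (Tcp1). In all, 28 members had a mean of at least 100 TPM, and 12 had a mean under 1 TPM. The inducible HSP70 genes were scarce beside Hspa8, with wild-type medians of 9.01 CPM for Hspa1a and 7.11 CPM for Hspa1b against 1663 CPM for Hspa8.

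Over all 32 mice the members' summed share ran from 0.895% to 1.12% of TPM, both in Msh3-/- mice, and its highest mean was 1.01% ± 0.0427 (SD, n = 8) in zQ175 mice. The ranges of the 4 genotypes overlapped.

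**Figure D1:**
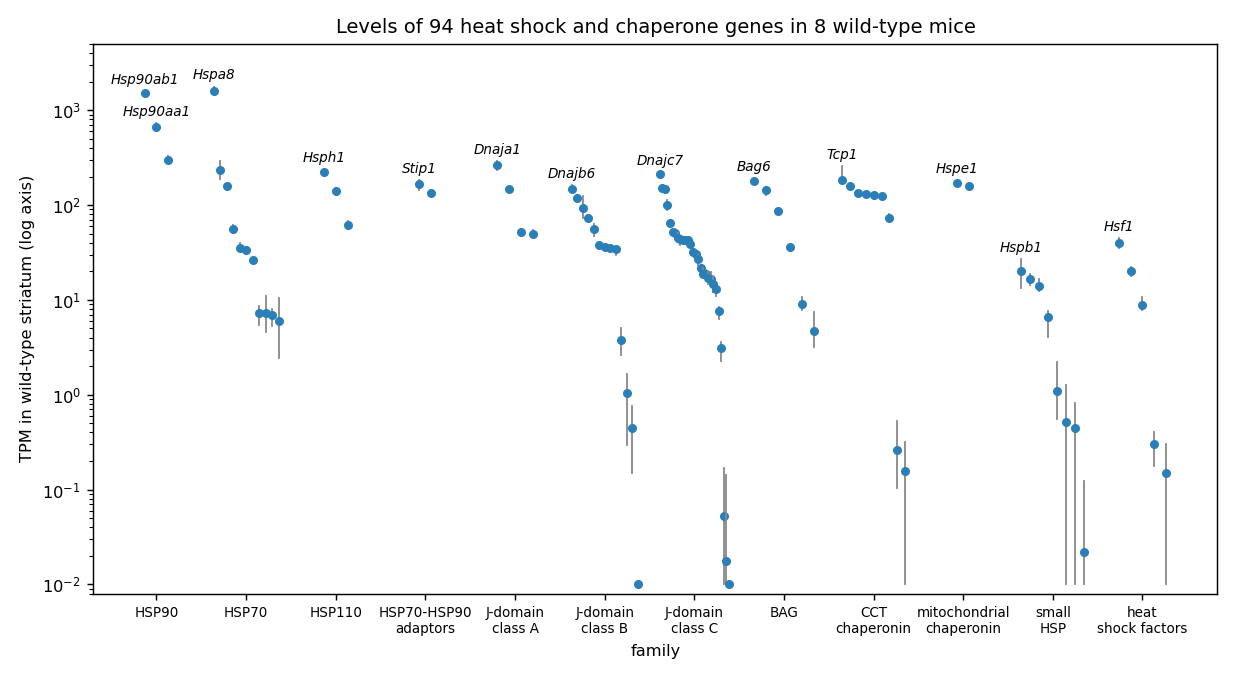
Wild-type level of each member, grouped by family, in TPM on a log axis; points are means of 8 mice and lines run from the lowest to the highest mouse, with values below 0.01 TPM drawn at 0.01. Hspa8 at 1597 and Hsp90ab1 at 1516 TPM stand above all other members, 28 of the 94 reach 100 TPM, and 12 lie under 1 TPM.

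The first question was which members differed with the zQ175 allele, and whether they did so in the same way with and without Msh3. The comparison of zQ175 with wild-type and that of zQ175:Msh3-/- with Msh3-/- share no mouse. In both, most members differed little: 51 of 82 (62.2%) differed by less than 0.1 on the log2 scale in the first, against 44.9% of all genes, and 48 (58.5%) did so in the second, against 46.5% of all genes. A gene is called different here where edgeR's quasi-likelihood test, adjusted by the method of Benjamini and Hochberg over all 16610 genes tested, gave p under 0.05 and the fold change was at least 1.2. With Msh3 present 6 of 82 members (7.32%) were called, against a background of 11.6% of all genes. Of these 1 was higher (1.22%, background 4.70%) and 5 were lower (6.10%, background 6.89%). With Msh3 absent 7 members (8.54%) were called, against 10.6% of all genes, 1 higher (1.22%, background 4.68%) and 6 lower (7.32%, background 5.96%).

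By adjusted p alone, with no minimum fold, 20 members (24.4%) passed with Msh3 present, 9 higher and 11 lower, where 26.5% of all genes passed. With Msh3 absent 25 (30.5%) passed, 9 higher and 16 lower, where 24.1% of all genes passed. The shares called lay below those of all genes, except for calls lower without Msh3 (7.32% against 5.96%). By adjusted p alone the members' share was below that of all genes with Msh3 present and above it with Msh3 absent. The members' median log2 fold changes were -0.000 and -0.016, beside 0.012 and 0.014 over all genes. Members past both thresholds in the 2 comparisons were Dnajc8, Dnajc2, Hsp90b1 and Hspb8, each lower with the zQ175 allele. By adjusted p alone 16 members passed in both, all with the same sign in each, 9 lower and 7 higher. The share of all genes that passed in both comparisons was not computed. Neither count therefore has a background beside it, and neither is read as particular to the members.

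**Figure D2:**
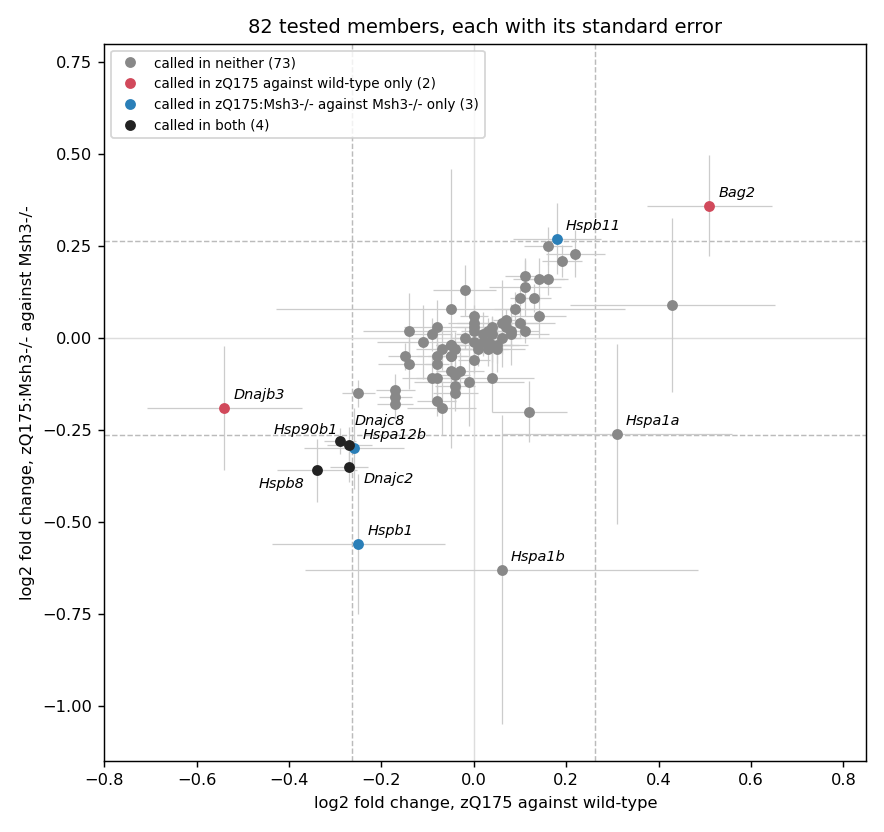
Log2 fold change of the 82 tested members with the zQ175 allele, with Msh3 present on the x axis (zQ175 against wild-type) and absent on the y axis (zQ175:Msh3-/- against Msh3-/-); bars are standard errors, and dashed lines mark a 1.2-fold change. Most points lie close to 0, and the 4 members called in both comparisons lie to the lower left, with Dnajc8 at -0.29 and -0.28.

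Among the J-domain proteins, 2 class C members were lower in both comparisons. Dnajc8 encodes a nuclear J-domain protein associated with the splicing machinery (ENSMUSG00000054405, GRCm38 chr4:132535550-132553742, plus strand). Its level ran from 87.1 through a median of 88.6 to 92.0 CPM in wild-type mice and from 66.2 through 73.3 to 77.2 CPM in zQ175 mice. The corresponding values were 80.8, 88.4 and 99.5 CPM in Msh3-/- and 69.1, 73.1 and 79.9 CPM in zQ175:Msh3-/- mice. Every mouse with the zQ175 allele lay below every mouse without it at the same Msh3 genotype. The log2 fold change was -0.29 ± 0.0350 (SE, adjusted p = 4.65e-08) with Msh3 and -0.28 ± 0.0352 (adjusted p = 1.45e-07) without it, and the exact two-sided permutation p was 1.55e-04 in each, the smallest that 8 against 8 mice can give.

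Dnajc2 (ENSMUSG00000029014, chr5:21757267-21785251, minus strand) encodes the J-domain partner of HSP70 on the ribosome, also known as MPP11 or zuotin. Its lowest, median and highest values were 40.0, 41.9 and 48.5 CPM in the wild-type group and 33.0, 36.0 and 38.2 CPM in zQ175 mice. In Msh3-/- mice they were 39.7, 44.5 and 45.8 CPM, and in zQ175:Msh3-/- mice 31.3, 34.6 and 36.8 CPM. Again no mouse with the allele reached the level of any mouse without it, in either pair of groups. Dnajc2 was lower by a log2 fold change of -0.27 ± 0.0405 (adjusted p = 2.65e-06) in zQ175 and -0.35 ± 0.0409 (adjusted p = 2.52e-08) in zQ175:Msh3-/- mice, with exact permutation p = 1.55e-04 for both. Both genes lie close to the 1.2-fold limit: with limma on log2(TPM + 0.1) the change was -0.23 for Dnajc8 and -0.21 for Dnajc2 between zQ175 and wild-type, which passed by adjusted p (2.79e-06 and 1.86e-04) but not by fold.

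Other class C members differed less. Dnajc7, a cytosolic co-chaperone with tetratricopeptide repeats, was lower without reaching 1.2-fold (171 to 185 CPM in wild-type, 153 to 163 in zQ175; log2 fold change -0.17, adjusted p = 2.84e-04, and -0.16, adjusted p = 5.56e-04, without Msh3). Its gene overlaps the oligodendrocyte gene Cnp, and the counting's use of strand is not given, so reads of the neighbour cannot be told apart from its own. Dnajc6, the neuronal auxilin that recruits HSP70 to uncoat clathrin vesicles, passed by adjusted p in the other direction: its median was 186 CPM in the wild-type and 213 CPM in the zQ175 group (log2 fold change 0.19 ± 0.0435, adjusted p = 9.69e-04), and 187 in Msh3-/- and 217 in zQ175:Msh3-/- mice (0.21 ± 0.0436, adjusted p = 4.50e-04). Dnajc18 differed by little but with almost no spread, at 94.1 to 99.2 CPM in wild-type and 100.5 to 107 CPM in zQ175 mice, ranges that did not overlap (log2 fold change 0.10, adjusted p = 4.62e-04). Dnajc4 was also higher by adjusted p, at a median of 10.1 CPM in zQ175 and 8.25 CPM in wild-type mice (0.22, adjusted p = 0.00699, and 0.23, adjusted p = 0.00635, without Msh3), as was Dnajc15, a J-domain protein of the inner mitochondrial membrane (0.13, adjusted p = 0.0107, and 0.11, adjusted p = 0.0363). Dnajc13, an endosomal J-domain protein, passed by adjusted p between zQ175 and wild-type (-0.15, adjusted p = 0.00259) and had -0.05 (adjusted p = 0.374) between zQ175:Msh3-/- and Msh3-/-. Dnajc5, the synaptic vesicle chaperone CSPα, had -0.02 and -0.00.

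No class B protein known to act on polyglutamine proteins was called. Dnajb6, a suppressor of polyglutamine aggregation, had medians of 112, 114, 114 and 117 CPM in the 4 genotypes (wild-type first, then Msh3-/- alone, zQ175 alone and both changes), with log2 fold changes of 0.00 and 0.04 for the allele with and without Msh3. Dnajb2, a neuronal J-domain protein that hands clients to the proteasome, had 0.09 and 0.08. None of the 4 class A members, which include the most abundant J-domain transcript Dnaja1 (-0.03 and -0.09), passed by adjusted p in either comparison. The only class B member called was Dnajb3, a gene known for expression in testis, between zQ175 and wild-type (median 1.23 against 1.67 CPM, overlapping, log2 fold change -0.54 ± 0.167, adjusted p = 0.0145, exact permutation p = 0.00715). Without Msh3 the same contrast gave -0.19 ± 0.168 (adjusted p = 0.463). Dnajb3 lies within the Ugt1a cluster on the other strand, and its level rested on 10 to 41 reads per mouse.

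The HSP90 family divided by compartment. Hsp90b1 (ENSMUSG00000020048, chr10:86690209-86705509, minus strand), whose promoter stretches are printed above, was lower with the zQ175 allele. It ran from 346 through 363 to 397 CPM in wild-type and from 283 through 299 to 346 CPM in zQ175 mice. In Msh3-/- mice the values were 308, 358 and 433 CPM, and in zQ175:Msh3-/- mice 278, 296 and 323 CPM. The groups met at the edge of their ranges with Msh3 and overlapped without it. The log2 fold change was -0.27 ± 0.0490 (adjusted p = 6.72e-05, exact permutation p = 3.11e-04) and -0.29 ± 0.0491 (adjusted p = 2.74e-05, exact permutation p = 4.66e-04). This change too was near the 1.2-fold limit, and over the alternatives run it ranged from -0.29 to -0.21 with Msh3 present, with an adjusted p of at most 0.00378. Without the Msh3-/- mouse male 4 the second value was -0.25 (adjusted p = 8.98e-05), short of the limit. The cytosolic HSP90 genes were not called: Hsp90aa1 had medians between 871 and 922 CPM and Hsp90ab1 between 1637 and 1691 CPM over the 4 genotypes, with log2 fold changes between -0.03 and 0.04 in both comparisons.

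Hspa5, which carries the same ER stress element, was not called. It ran from 213 through 255 to 325 CPM in wild-type and from 204 through 237 to 415 CPM in zQ175 mice (log2 fold change -0.01 ± 0.119, adjusted p = 0.969). Between zQ175:Msh3-/- and Msh3-/- mice its change was -0.12 ± 0.120 (adjusted p = 0.532). Its standard error was more than 2 times that of Hsp90b1, and the 2 genes were therefore compared as the log2 ratio of Hsp90b1 to Hspa5 in each mouse. The ratio was taken up after Hsp90b1 had been called in these mice. Its p-values are not adjusted for that choice and are not separate support for the call. The ratio was 0.49 ± 0.199 (SD, n = 8) in wild-type and 0.25 ± 0.233 in zQ175 mice. Where Msh3 was deleted it was 0.51 ± 0.118 without and 0.34 ± 0.0955 with the zQ175 allele. It was lower by 0.17 between zQ175:Msh3-/- and Msh3-/- (exact permutation p = 0.00637). Between zQ175 and wild-type the difference was -0.24 (exact permutation p = 0.0362), a call lost without any 1 of 7 mice, for example -0.17 (exact permutation p = 0.0723) without the zQ175 mouse male 1. Between zQ175:Msh3-/- and wild-type it was -0.15 (exact permutation p = 0.0740).

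The other ER members did not move with Hsp90b1. Of the 8 ER members 1 was called lower, Hsp90b1, in either comparison, and the median log2 fold changes were -0.028 and -0.035. Dnajc3, the third member with the ER stress element, had 0.02 and 0.01, and the J-domain proteins Dnajb11 and Dnajb9 had -0.09 and -0.00 with Msh3 and -0.11 and 0.03 without it. Hspa13, an HSP70 of the microsomal fraction, passed by adjusted p in the higher direction (0.11, adjusted p = 0.0427, and 0.17, adjusted p = 0.00363). Of 13 further ER folding and unfolded protein response genes that are not members, none was called in either comparison by edgeR. By adjusted p alone 1 passed, Ddit3 (CHOP), which was lower (-0.15, adjusted p = 0.0260, and -0.19, adjusted p = 0.00698).

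Of the 4 small heat shock proteins tested, 1 was called with Msh3 present and 3 with Msh3 absent, where 11.6% and 10.6% of all genes were called. Of the 3, 2 were lower and 1 was higher. With so few members, these counts are not read as a result about the family. Hspb8 (ENSMUSG00000041548, chr5:116408491-116422864, minus strand) works with BAG3 in the selective autophagy of misfolded proteins. It ran from 9.73 through 10.4 to 13.2 CPM in wild-type and from 7.63 through 8.50 to 10.1 CPM in zQ175 mice, and in Msh3-/- and zQ175:Msh3-/- mice from 9.28 through 11.7 to 14.3 and from 7.59 through 9.25 to 11.1 CPM. The groups overlapped slightly. Its log2 fold change was -0.34 ± 0.0865 (adjusted p = 0.00276, exact permutation p = 3.11e-04) with Msh3 and -0.36 ± 0.0864 (adjusted p = 0.00163, exact permutation p = 0.00435) without. Bag3, its partner, was not called, with 0.04 and -0.02.

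Hspb1, the heat-inducible HSP27 gene, was called lower between zQ175:Msh3-/- and Msh3-/- mice. It ran from 5.90 through 8.65 to 15.3 CPM in Msh3-/- and from 3.96 through 6.50 to 7.58 CPM in zQ175:Msh3-/- mice (log2 fold change -0.56 ± 0.190, adjusted p = 0.0293, exact permutation p = 0.0138). Its change between zQ175 and wild-type was -0.25 ± 0.188 (adjusted p = 0.363), and the 2 changes did not differ beyond their error (interaction -0.31 ± 0.268, adjusted p = 0.999). The call rested on single mice: without Msh3-/- male 4 the change was -0.42 (adjusted p = 0.0943). Hspb11, an intraflagellar transport protein that is related to the family by name, was called higher in the same comparison (median 5.05 against 4.60 CPM, log2 fold change 0.27 ± 0.0965, adjusted p = 0.0405), and lost the call under DESeq2 (adjusted p = 0.0968). Hspb6, the fourth member tested, had 0.06 and 0.04.

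The HSP70 family held no called member with Msh3 present and 1 with Msh3 absent. This was Hspa12b, a divergent HSP70 known from endothelial cells (8.63 CPM in the median Msh3-/- mouse, 7.11 in the median zQ175:Msh3-/- mouse, log2 fold change -0.30 ± 0.111, adjusted p = 0.0443). With DESeq2 the adjusted p was 0.0697. Between zQ175 and wild-type it had -0.26 ± 0.108 (adjusted p = 0.0751). Endothelial markers were lower too, as were some markers of other cells. Of 5 such markers 1 was called lower in each comparison, with medians of -0.258 and -0.177, and their summed level was 164 to 183 CPM in wild-type against 112 to 161 CPM in zQ175 mice, and 137 to 195 CPM in Msh3-/- against 126 to 156 CPM in zQ175:Msh3-/- mice. By adjusted p alone, 3 and 1 of the 5 endothelial markers were lower in the 2 comparisons, where 26.5% and 24.1% of all genes passed in either direction. By the same measure 3 of 6 astrocyte markers were lower in each comparison, and 2 and 4 of 5 microglia markers. Of 6 oligodendrocyte markers 1 was lower in each, and no ependymal marker passed. The part of any of these markers in the results for Hspa12b or other members was not tested.

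Hspa2 and Hspa12a, an HSP70 of germ cells and brain and a divergent brain HSP70, were both higher by adjusted p with the allele. Hspa2 ran from 35.4 through 38.0 to 43.1 CPM in wild-type and from 36.3 through 44.4 to 46.2 CPM in zQ175 mice. Where Msh3 was deleted it ran from 36.0 through 39.4 to 45.8 CPM without and from 42.5 through 46.8 to 50.9 CPM with the zQ175 allele. Its median was highest where both changes were present, and the log2 fold changes were 0.16 (adjusted p = 0.0167) with and 0.25 (adjusted p = 4.40e-04) without Msh3. Hspa12a had 0.16 in each (adjusted p = 0.00702 and 0.00616). Hspa8 stood at medians of 1663, 1705, 1811 and 1744 CPM in the 4 genotypes in the same order, with 0.14 ± 0.0603 (adjusted p = 0.0855) and 0.06 (adjusted p = 0.508). Hspa9, the mitochondrial HSP70, passed by adjusted p at a size of -0.08 (adjusted p = 0.0213) and -0.07 (adjusted p = 0.0460).

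The HSP110 and BAG nucleotide exchange factors gave changes under 1.2-fold apart from Bag2. Hspa4, an HSP110 protein of the cytosol, ranged over 261 to 296 CPM in wild-type and 225 to 260.1 CPM in zQ175 mice, without overlap (log2 fold change -0.17 ± 0.0393, adjusted p = 0.00114, exact permutation p = 1.55e-04), and had -0.18 (adjusted p = 9.10e-04) without Msh3. Bag5 was lower by -0.25 ± 0.0360 (adjusted p = 1.05e-06), at 61.0 to 72.1 CPM in zQ175 and 72.4 to 82.3 CPM in wild-type mice, and by -0.15 (adjusted p = 0.00211) without Msh3. Bag4 had -0.17 (adjusted p = 0.00282) and -0.14 (adjusted p = 0.0170).

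Bag2, an inhibitor of the ubiquitin ligase CHIP, was the member called higher in zQ175 mice. It ran from 2.45 through 3.18 to 4.76 CPM in wild-type and from 4.00 through 5.18 to 5.54 CPM in zQ175 mice (log2 fold change 0.51 ± 0.135, adjusted p = 0.00425, exact permutation p = 0.00326). The wild-type and zQ175 ranges overlapped. In zQ175:Msh3-/- against Msh3-/- mice the change was 0.36 ± 0.138 (adjusted p = 0.0514), which missed the threshold. The 2 changes did not differ beyond their error (interaction -0.15, adjusted p = 0.999).

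Further members passed by adjusted p between zQ175:Msh3-/- and Msh3-/- mice but not between zQ175 and wild-type mice, at changes under 1.2-fold. Hspa14, an HSP70 that works at the ribosome with Dnajc2, had -0.15 (adjusted p = 0.0289) there and -0.04 (adjusted p = 0.598) with Msh3 present. The class B member Dnajb4 had -0.13 (adjusted p = 0.0215) and -0.04 (adjusted p = 0.517), and Cct7 had -0.10 (adjusted p = 0.0208) and -0.04. Dnajc12, a co-chaperone of the aromatic amino acid hydroxylases, had 0.16 (adjusted p = 0.0361) and 0.14 (adjusted p = 0.0636). The difference between the 2 comparisons did not pass the interaction test for Hspa14, Dnajb4, Cct7 or Dnajc12 (adjusted p = 0.999 for each).

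In the zQ175 against wild-type comparison the groups did not overlap for 6 members (7.32%, background 6.63%): Bag5, Hspa4, Dnajc7, Dnajc2 and Dnajc8 lower and Dnajc18 higher. In zQ175:Msh3-/- against Msh3-/- this held for 2 (2.44%, background 5.39%), Dnajc2 and Dnajc8.

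**Figure D3:**
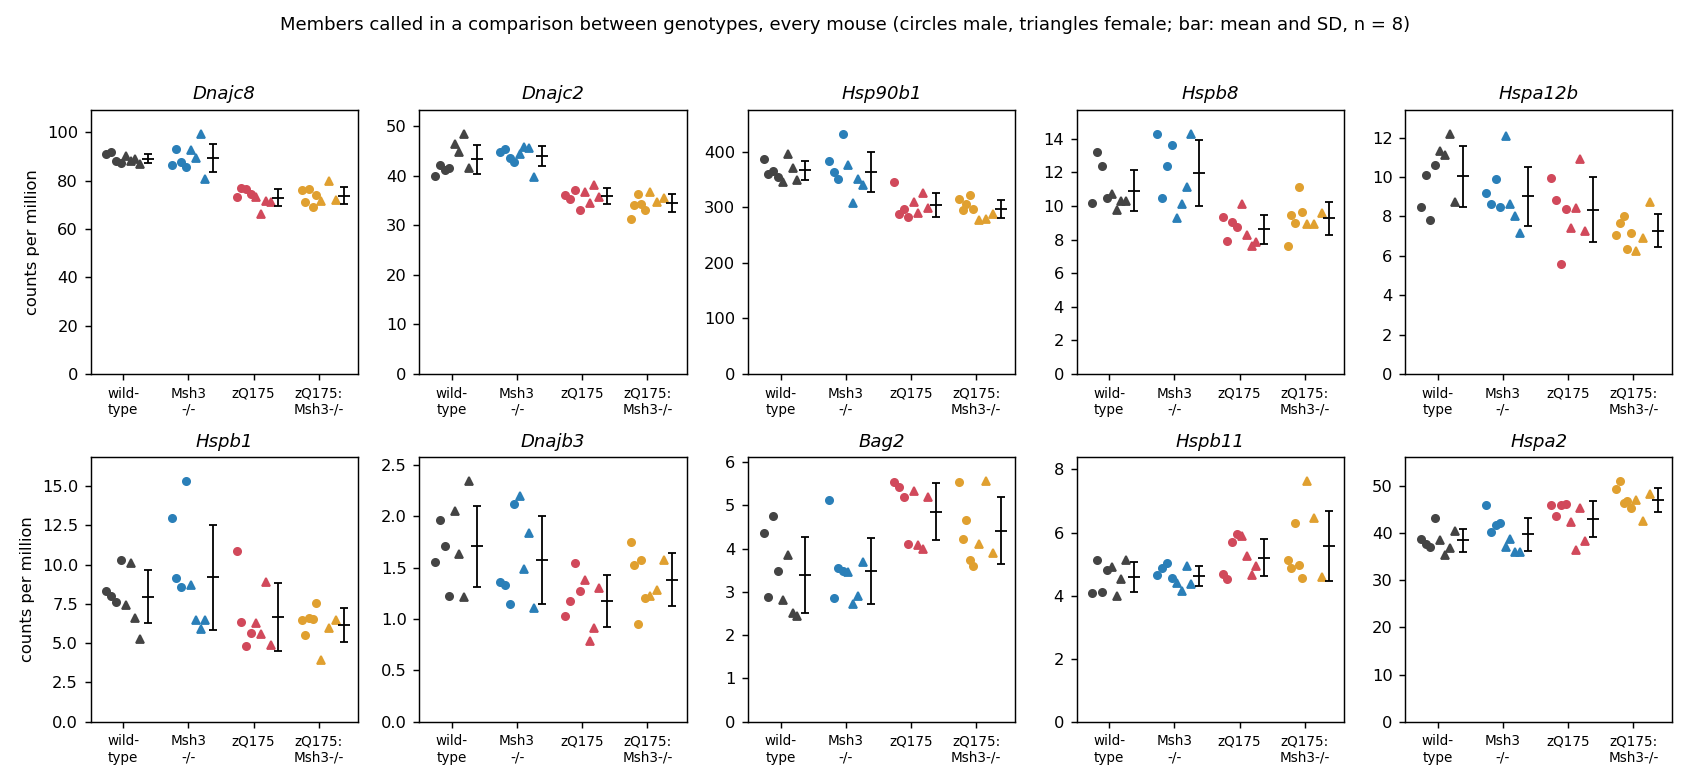
CPM of 10 members in every mouse, by genotype; circles are males, triangles are females, and bars give the mean and SD of 8 mice. Dnajc8 lies at 66.2 to 77.2 CPM in zQ175 and 87.1 to 92.0 CPM in wild-type mice, whereas Hspb1 and Bag2 overlap between genotypes.

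No chaperonin was called. None of the 7 tested CCT members was called in either comparison by edgeR or DESeq2, and their median log2 fold changes were 0.065 and 0.024. Cct5 passed by adjusted p between zQ175 and wild-type at 0.11 (adjusted p = 0.00761) and had 0.02 (adjusted p = 0.644) without Msh3. Cct2 had 0.07 (adjusted p = 0.0806) and 0.05. The mitochondrial pair had 0.00 and -0.06 for Hspd1 and -0.08 (adjusted p = 0.169) and -0.17 (adjusted p = 0.00362) for Hspe1. Over the 8 mitochondrial members the medians were -0.042 and -0.038, and none was called. The adaptors Stip1 and St13 lay between -0.09 and 0.05.

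No heat shock factor was called. Hsf1, the main activator, had medians of 32.3, 33.1, 31.2 and 30.1 CPM in the 4 genotypes in the same order (-0.08, adjusted p = 0.229, and -0.11, adjusted p = 0.0747), and Hsf2 had -0.04 and -0.03. A list of 12 cytosolic members, called heat-inducible here, held Hspa1a, Hspa1b, Hspa8, Hsp90aa1, Hsp90ab1, Hsph1, Hspa4l, Dnajb1, Dnaja1, Hspb1, Bag3 and Stip1. It includes Hspa8, the constitutive HSP70, so it does not hold inducible genes alone. None of the 12 was called between zQ175 and wild-type, with a median of 0.037 and a range from -0.25 to 0.31. Between zQ175:Msh3-/- and Msh3-/- 1 was called, Hspb1, with a median of -0.070 and a range from -0.63 to 0.06. That range depends on a single mouse, described below.

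Pathway genes outside the rule gave a similar picture. Of 11 HSP90 co-chaperones and immunophilins 1 was called higher in each comparison, Ahsa2, a homologue of the activator of HSP90 ATPase (29.3 ± 3.17 CPM in zQ175 against 20.4 ± 2.25 in wild-type, SD, n = 8; log2 fold change 0.52, adjusted p = 1.11e-05, and 0.31, adjusted p = 0.00647). Of 12 HSP70 partners 1 was called lower between zQ175 and wild-type, the ubiquilin Ubqln4 (-0.27, adjusted p = 2.59e-07), which had -0.24 (adjusted p = 1.90e-06) without Msh3. Stub1, which encodes CHIP, had -0.11 in each (adjusted p = 0.0139 and 0.0148). Of 11 other chaperones none was called in either comparison by edgeR. By adjusted p alone 1 was higher and 1 lower in each.

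A further comparison set zQ175:Msh3-/- mice against wild-type. It shares the wild-type mice with the first comparison and the zQ175:Msh3-/- mice with the second, so its values are given beside them and not as separate support. Here 3 members (3.66%, background 5.50%) were called higher and 4 (4.88%, background 6.49%) lower, and 20 (24.4%) passed by adjusted p alone, against 26.9%. They were Dnajc8 (-0.27, adjusted p = 1.76e-07), Dnajc2 (-0.32), Hsp90b1 (-0.30, adjusted p = 1.17e-05) and Hspa12b (-0.46 ± 0.109, adjusted p = 0.00150) lower, and Bag2 (0.37, adjusted p = 0.0390), Hspb11 (0.28, adjusted p = 0.0279) and Hspa2 (0.29 ± 0.0516, adjusted p = 4.19e-05) higher.

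The second question was whether loss of Msh3 altered these transcripts. No member was called between zQ175:Msh3-/- and zQ175 mice by edgeR or DESeq2. There 0.00602% of all genes were called, which is 1 gene, Msh3. At an unadjusted p under 0.05 there were 2 members (Hspa2 and Hspe1, 2.44%, against 3.70% of all genes), and the smallest adjusted p of a member was 0.999. No member was called between Msh3-/- and wild-type mice either, where again only Msh3 was called (0.00602%), with 3 members at an unadjusted p under 0.05 (Hspa1a, Dnajb1 and Dnajc13, 3.66%, against 5.09% of all genes) and a smallest adjusted p of 0.916. The interaction, which asks whether the zQ175 change differed between Msh3 genotypes, called 0% of genes and 0 members, with Bag5 and Dnajb1 (2.44% of members, against 4.44% of all genes) at an unadjusted p under 0.05. For Dnajc8 the zQ175:Msh3-/- median of 73.1 CPM stood beside 73.3 in zQ175 mice, and for Hsp90b1 296 beside 299 CPM. The median standard error of a member's log2 fold change was 0.0451 in both comparisons of Msh3 loss and 0.0638 in the interaction, which limits how small a difference could be seen.

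Mice of 1 genotype agreed closely for most members and widely disagreed for a few. The SD within genotype had a median of 0.0905 on the log2 scale over the members, against 0.136 over all genes. The most variable were Hspa1b (0.804), Dnajb13 (0.708), Hspa1a (0.447), Hsf5 (0.391) and Hspb1 (0.378). Of these Dnajb13, a protein of the axoneme of cilia, and Hsf5 had at most 1.57 and 0.899 CPM in any mouse, so their spread includes counting error.

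Members of the heat-inducible list, which includes the constitutive Hspa8, were highest together in single mice. Msh3-/- male 4 had the highest level of its genotype in 11 of the 12 cytosolic heat-inducible members, at a median of 0.37 and up to 2.24 above the genotype's median on the log2 scale. It had 37.6 CPM of Hspa1a where the other 7 Msh3-/- mice had 7.27 to 13.5, and 39.7 CPM of Hspa1b where the genotype's median was 8.52. It was highest in 2 of the 8 ER members. A different profile was seen in zQ175 male 1, which was highest of its genotype in 8 of the 12 heat-inducible and 4 of the 8 ER members, and had 415 CPM of Hspa5 where the zQ175 median was 237. In this mouse all 13 of the ER folding and unfolded protein response genes outside the rule lay above the zQ175 median, and 10 were the highest of the genotype. Other mice had similar profiles. Wild-type female 2 was highest of its genotype in 5 of the 8 ER members and in 7 of these 13 genes. All 13 lay above the genotype's median in that mouse, in wild-type male 1 and in zQ175 female 3. Wild-type male 1 was also highest in 7 of the 12 heat-inducible members. These mice were picked out after their values were seen, and the lists are not independent of the members' levels.

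**Figure D4:**
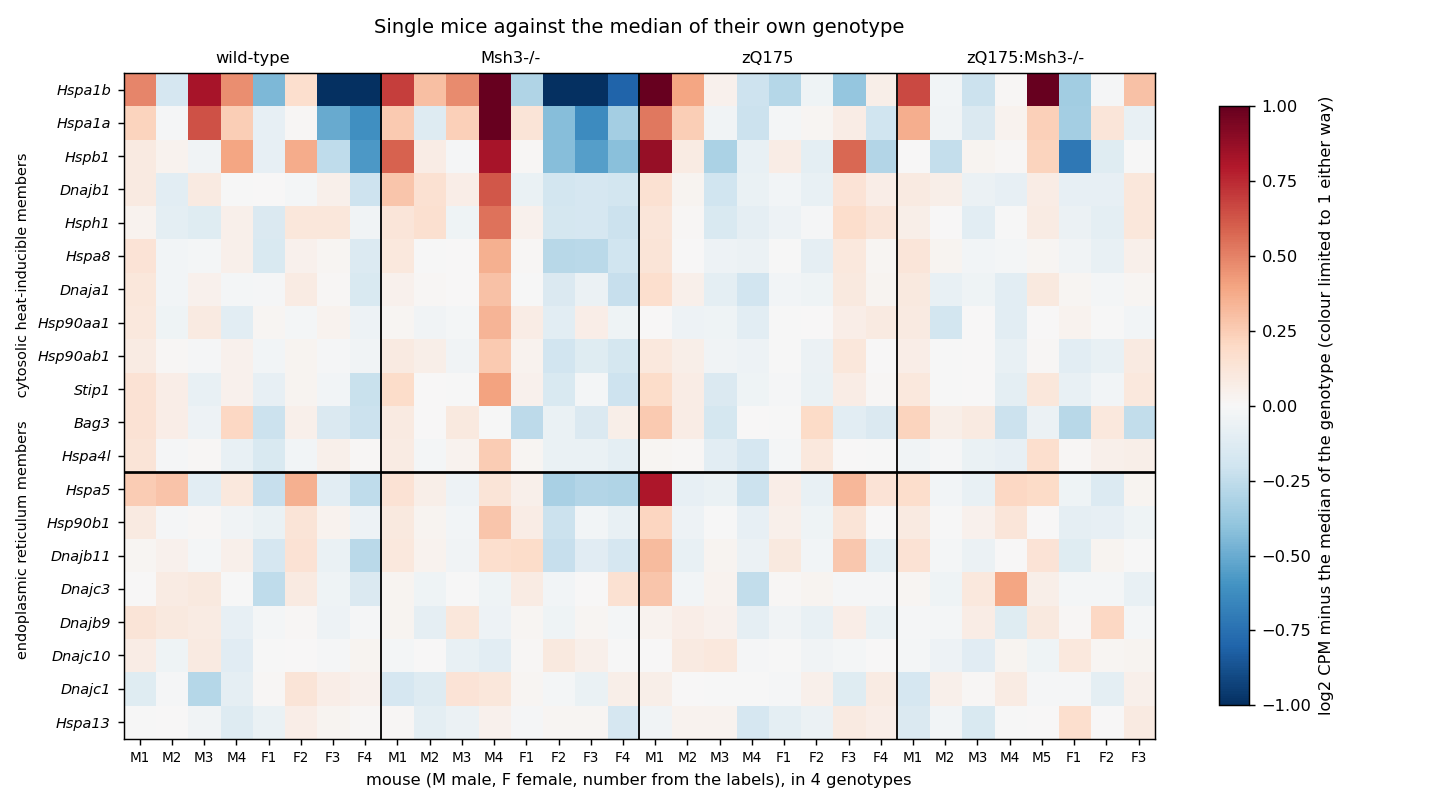
Level of 12 cytosolic heat-inducible and 8 ER members in each of the 32 mice, as log2 CPM minus the median of the genotype, with the colour limited to -1 and 1. Msh3-/- male 4 is raised in 11 of the 12 heat-inducible members, and zQ175 male 1 in heat-inducible and ER members.

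A single mouse moved several contrasts. Without Msh3-/- male 4, the log2 fold change of Hspa1a between Msh3-/- and wild-type went from 0.57 to 0.16 and that of Hspa1b from 0.65 to 0.02. Between zQ175:Msh3-/- and Msh3-/- that of Hspa1b went from -0.63 to -0.00 and that of Hspa1a from -0.26 to 0.15. None of these values passed the test with or without the mouse. Hsph1 had -0.19 ± 0.0744 (adjusted p = 0.0664) in the latter comparison and -0.10 (adjusted p = 0.214) without the mouse. Dnajb1, the J-domain partner of inducible HSP70, had an interaction of -0.31 (adjusted p = 0.999), and -0.22 without the mouse.

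Covariation within a genotype was measured between Hsph1 and 4 other members, in 16 relations of 8 mice each. Hsph1 and Dnajb1 went together in Msh3-/- mice (Pearson's r = 0.96, exact permutation p = 9.42e-04, adjusted p = 0.00774; Spearman's rho = 0.93, exact permutation p = 0.00223, adjusted p = 0.0357), in zQ175 mice (r = 0.93, exact permutation p = 9.67e-04, adjusted p = 0.00774; rho = 0.86, exact permutation p = 0.0107, adjusted p = 0.0571) and in zQ175:Msh3-/- mice (r = 0.87, exact permutation p = 0.00769, adjusted p = 0.0205; rho = 0.81, exact permutation p = 0.0218, adjusted p = 0.0638). Without the 2 mice farthest from the median of Hsph1, r was 0.87, 0.87 and 0.84. In wild-type mice r was 0.16 (exact permutation p = 0.720) and rho 0.00. Hspa8 followed Hsph1 with r = 0.64, 0.95, 0.80 and 0.76 in the 4 genotypes in the same order, of which 0.95 (adjusted p = 0.00886) and 0.80 (adjusted p = 0.0400) passed by r. Neither of these passed by rho (0.79, adjusted p = 0.0638, and 0.76, adjusted p = 0.0653). Hspa5 followed Hsph1 in Msh3-/- mice (r = 0.83, adjusted p = 0.0134, and rho = 0.90, adjusted p = 0.0365). Without the 2 farthest mice Hspa5 had r = 0.96 there. Hspa1b had r = 0.92 (adjusted p = 0.00933) in Msh3-/- mice, where rho was 0.79 (adjusted p = 0.0638) and did not pass, and r = -0.10 in wild-type mice. Whether these relations differ between genotypes was not tested. Each relation pools males and females, and its permutations took no account of sex. In Msh3-/- mice Dnajb1 ran from 51.2 to 75.0 CPM in males and from 42.9 to 46.5 CPM in females. Hsph1 ran from 322 to 483 CPM in these males and from 285 to 340.5 CPM in these females. The part of sex in the relations was not tested.

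Sex was examined after single mice had been seen to stand apart. In a fit with genotype and sex no member was called between males and females by edgeR, where 0.169% of all genes were called and 0.313% passed by adjusted p alone. Of the members 16 (19.5%) had an unadjusted p under 0.05, against 9.31% of all genes, and the smallest adjusted p was 0.0565, for Hspa1b, which was 2.07-fold higher in males (log2 fold change 1.05 ± 0.246). Hspa1a had 0.50 ± 0.153 (adjusted p = 0.212) and Hspb1 0.34 (adjusted p = 0.351).

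The lowest, median and highest levels of Hspa1b were 6.28, 9.83 and 12.5 CPM in wild-type males and 3.02, 4.25 and 7.95 in wild-type females. In Msh3-/- mice they were 10.3, 12.6 and 39.7 CPM in males and 2.63, 4.09 and 6.76 in females, without overlap. In zQ175 mice they were 5.81, 7.88 and 14.5 CPM in males and 5.15, 6.03 and 7.01 in females, and in zQ175:Msh3-/- mice 5.09, 5.96 and 14.9 in 5 males and 4.65, 5.87 and 7.24 in 3 females. The male median was thus higher in each genotype, by little in zQ175:Msh3-/- mice. The ranges of the sexes overlapped in every genotype but Msh3-/-. Whether the sex difference depends on genotype was not tested. Over all mice, the mean within-genotype difference was 0.96 on the log2 scale (two-sided permutation of sex within genotype, p = 1.30e-04), and 0.83 (p = 2.60e-04) without Msh3-/- male 4. For Hspa1a it was 0.44 (permutation p = 7.20e-04), and 0.34 (p = 0.00131) without that mouse. The same test was run for 4 further members. Hspb1 had 0.33 (permutation p = 0.0136) and Hspa8 0.11 (permutation p = 0.010), and without that mouse 0.28 (p = 0.0245) and 0.08 (p = 0.0192). Dnajb1 had 0.12 (permutation p = 0.0332), and 0.08 (p = 0.0651) without that mouse. Its differences within the genotypes were 0.06, 0.43, -0.05 and 0.04 in the same order. Hsph1 had 0.05 (permutation p = 0.354), and 0.02 (p = 0.687) without that mouse. With all mice kept, the difference of each gene tested this way was largest in Msh3-/- mice. The genes were chosen for this test after their values were seen, and the p-values are not adjusted for that choice.

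Marker levels overlapped between the sexes. The summed choroid plexus markers ran from 37.9 through a median of 142 to 2968 CPM in 17 males and from 32.3 through 76.9 to 1825 CPM in 15 females. The summed immediate early genes ran from 326 through 579 to 1203 CPM in males and from 283 through 490.1 to 806 CPM in females. These CPM ranges pool the 4 genotypes. In the fit with genotype and sex, all 4 choroid plexus markers had higher estimates in males (median log2 fold change 1.239, from 0.38 to 2.37). So did all 6 immediate early markers (median 0.301, from 0.07 to 0.54). None of the 4 choroid plexus and 6 immediate early markers passed by adjusted p between the sexes in edgeR. The part of these markers in the sex difference of Hspa1b was not tested.

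**Figure D5:**
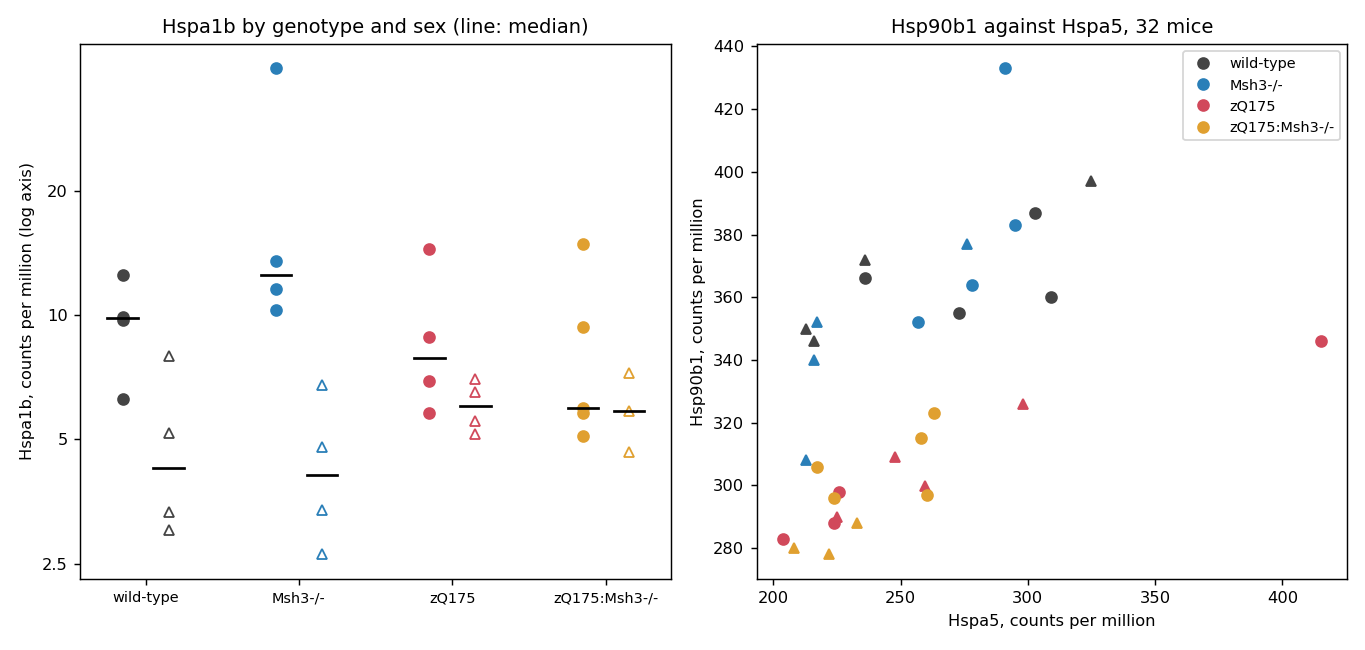
Left, Hspa1b in CPM on a log axis by genotype and sex, with the median of each set as a line; right, Hsp90b1 against Hspa5 in CPM in all 32 mice, with circles for males and triangles for females. Hspa1b medians are 12.6 CPM in Msh3-/- males and 4.09 CPM in females, and on the right zQ175 male 1 lies apart at 415 CPM of Hspa5.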

How the data were processed

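The authors dissected the striatum from each of 32 mice, prepared polyA-selected libraries and sequenced them as paired-end reads. The authors deposited unnormalized whole-number counts per gene, made on GRCm38.p6, for each mouse. They also deposited a table of TPM values, scaled for gene length and depth, which is named as FPKM but whose columns sum alike, as TPM do. The aligner, the counting program and its strand setting are not given in the sources used here. Strand and counting choices bear on overlapping genes and on near-identical copies such as Hspa1a and Hspa1b.

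Groups were taken from the sample labels. Counts were tested with edgeR 4.0.16 in R 4.3.3 (TMM scaling, filterByExpr by genotype, robust quasi-likelihood fits, 1 model of 4 genotypes without covariates), which kept 16610 genes. DESeq2 1.42.0 and limma 3.58.1 were alternatives. For single members an exact permutation test (two-sided) of TMM log2 CPM was run beside the fit (12870 arrangements of 8 against 8 mice). These p-values were not adjusted over the members. The symbol rule uses no measured value, but the members and lists were taken up with earlier results of these data known. Named members are those called in a comparison and anchor genes of each family, and others are named because a count in the text refers to them. Gene symbols and positions are from GENCODE M21 on GRCm38, and promoter windows from RefSeq on GRCm38.p6. In mice with the lowest depth 3 reads are 2.43e-05% of the library. The steps were tested on simulated data before use. Summaries were made in Python 3.11.15.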

Additional observations from a re-analysis of the deposited data

Results flagged for a closer look

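Within each genotype the named members were searched for a mouse that stood apart, by the gap to its nearest neighbour as a share of the group's range. The gap exceeded Dixon's 95% limit for groups of 8 in 5 of 136 sets. Chance does this in about 1 set in 20, which would be more than the 5 sets found.

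Msh3-/- male 4 stood apart for Hspa1a, with a gap of 0.627 of the range (37.6 CPM against 7.27 to 13.5 in the other mice), and for Hsp90aa1, with a gap of 0.596 (1102 against 809.5 to 917 CPM). The 2 genes fall in the same mouse that had the highest level in 11 of the 12 heat-inducible members. Tcp1 stood apart in wild-type male 3, with a gap of 0.857 (256 against 169.8 to 180.0 CPM), and, on the low side, in zQ175 female 2, with a gap of 0.536 (157 against 172 to 187 CPM). Hsf1 stood apart in zQ175:Msh3-/- male 5, with a gap of 0.528 (35.1 against 28.1 to 31.2 CPM). No cause of these values was tested.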

How the results depend on the processing

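The count of members called depends mainly on the minimum fold. Without one it was 20 in zQ175 against wild-type, 25 in zQ175:Msh3-/- against Msh3-/- and 20 in zQ175:Msh3-/- against wild-type, in place of 6, 7 and 7, and at a minimum of 1.5-fold it was 0 in each. Of all genes 26.5%, 24.1% and 26.9% passed without a minimum. At 1.5-fold 538 of all 16610 genes were called in zQ175 against wild-type, in place of 1925. With limma on log2(TPM + 1) the count of members was 3 in the first comparison, and with no filter on low counts 4 in the second. With DESeq2 the counts were 6, 5 and 5. Of all genes, 2003 were called with limma on log2(TPM + 1) and 1833 with DESeq2 in the first comparison, in place of 1925. These 2 settings tested other numbers of genes than the main fit. The counts of members under alternatives are not read as particular to the members. Leaving out each mouse in turn gave 4 to 8, 3 to 8 and 5 to 7 members, with 3 in the second comparison without Msh3-/- male 4. The comparisons of Msh3 loss and the interaction gave 0 under every alternative run. The replicate numbers of the labels did not pair the mice (same-numbered deviations correlated between -0.47 and 0.48), and with them as a replicate block the counts were 6, 8 and 8. Of 2788 values of named members under alternatives, 67 lost and 25 gained the call by adjusted p and fold together, and none changed sign and call together. Dnajc8, Dnajc2, Hsp90b1 and Hspb8 kept an adjusted p under 0.05 in all 42 settings of both main comparisons, and the call, where lost, was lost by fold alone. Hspa12b had such an adjusted p in 24, Hspb11 in 32 and Hspb1 in 34 of 42 settings of the second comparison, and Bag2 in 13. The TPM scale moved the median of all genes by at most 0.07 on the log2 scale.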
